A study of Mus musculus with 30 samples.

Results

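Receptors for serotonin, dopamine, noradrenaline, acetylcholine and opioid peptides were examined in bulk RNA-seq of the mouse dorsal hippocampus. The 53 genes are the rows of the expression table whose symbols begin Htr1 to Htr7, Drd1 to Drd5, Adra1 or Adra2, Chrm1 to Chrm5 or Chrn, or are Adrb1 to Adrb3, Oprd1, Oprk1, Oprl1 or Oprm1, out of 24883 rows in all. They comprise 14 serotonin, 5 dopamine, 9 adrenergic, 5 muscarinic, 16 nicotinic and 4 opioid receptor genes. The rule used names only and no measured value.

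RNA was taken from 30 adult male C57BL/6J mice of wild-type genotype, 6 in each of 5 experimental conditions, with 1 library per mouse. VEH-HC mice received the transfection reagent jetPEI without DNA, infused into the dorsal hippocampus, and were only handled in the home cage. VEH-T10 and VEH-T3 mice received the same reagent and were then trained in the object location memory (OLM) task for 10 min, a threshold period for long-term memory, or for 3 min, a subthreshold period. Y397F-T10 and Y397D-T3 mice received jetPEI carrying a plasmid for HA-tagged mouse CREST, a subunit of the neuronal BAF chromatin remodelling complex. In the plasmid's CREST a tyrosine was replaced by phenylalanine (Y397F) or by aspartic acid (Y397D). Y397F-T10 mice were trained for 10 min and Y397D-T3 mice for 3 min. The sample labels call the mutants phospho-null and phospho-mimetic. The paper states that phosphorylation of this tyrosine could not be detected and that the mutants are therefore named only as point mutants. The mutant was driven by a short CaMK2 promoter, which is active in excitatory neurons, and all mice kept their own wild-type CREST. The sample labels place the infusion 3 days before training. Tissue was dissected 1 h after training. Training in this task follows days of habituation to the chamber, which home cage controls did not have. Habituation and training therefore cannot be told apart in comparisons with VEH-HC. In these libraries no condition had a plasmid without training or a plasmid without the mutation, so the DNA and the mutation cannot be told apart.

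Most of these receptors couple to G proteins. Gs-coupled receptors (Drd1, Drd5, Adrb1, Htr4, Htr6, Htr7) raise cyclic AMP, Gi-coupled receptors (Htr1a, Drd2, Adra2a, Adra2c, Chrm2, Chrm4 and the opioid receptors) lower it, and Gq-coupled receptors (Htr2a, Htr2c, Adra1d, Chrm1, Chrm3) activate phospholipase C. The nicotinic receptors and Htr3a are ligand-gated cation channels. In the hippocampus serotonin, dopamine, noradrenaline and acetylcholine arrive with long-range axons from the raphe, ventral tegmental area, locus coeruleus and medial septum. Their receptors set excitability and the strength of synaptic plasticity during learning.

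Levels are in FPKM, sequenced fragments divided by transcript length and library total, so that they can be compared between genes. The fragment totals are unknown. From steps that single fragments leave in low values, the depth of a library was estimated at 0.813 to 1.24 of the median library. Libraries of 1 condition correlated with a median of 0.98 over genes, and 0 columns were identical. Ss18l1, the gene for CREST, had 11.4 to 13.3 FPKM in VEH-HC. It had 10.4 to 13.3 FPKM in VEH-T10 mice, 11.8 to 14.7 in VEH-T3, 11.4 to 14.05 in Y397F-T10 and 12.9 to 14.02 in Y397D-T3. These ranges overlap, so the total of this gene does not check which mice received a plasmid. The tissue was checked against marker lists. All 7 CA1 and all 6 hippocampal glutamatergic markers were above 0 in every library, and the CA1 list summed to 169 to 253 FPKM. Libraries also held choroid plexus RNA in amounts from 11.6 to 12924 FPKM summed over 10 markers, with Ttr, the transthyretin gene of that epithelium, between 5.89 and 12451 FPKM. The libraries VEH-T10 1, VEH-T3 1 and Y397F-T10 1 had the 3 lowest levels on each of the astrocyte, microglia and oligodendrocyte lists, with astrocyte sums of 461, 442 and 436 FPKM against 559 to 1676 in the other 27. Counts of changed receptors are therefore also given without these 3.

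The receptors spanned a wide range of levels. Of the 53, 7 averaged at least 10 FPKM, 20 averaged 1 to 10, 15 averaged 0.1 to 1 and 11 averaged less than 0.1. Of all rows of the table, 26.3% averaged at least 10 FPKM, against 13.2% of the receptors, and 26.7% averaged 1 to 10, against 37.7%. The 27 that averaged at least 1 FPKM over the 30 libraries were tested, with Drd1 (1.04 FPKM) just inside this limit and Drd2 (0.979 FPKM) just outside it.

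**Figure D1:**
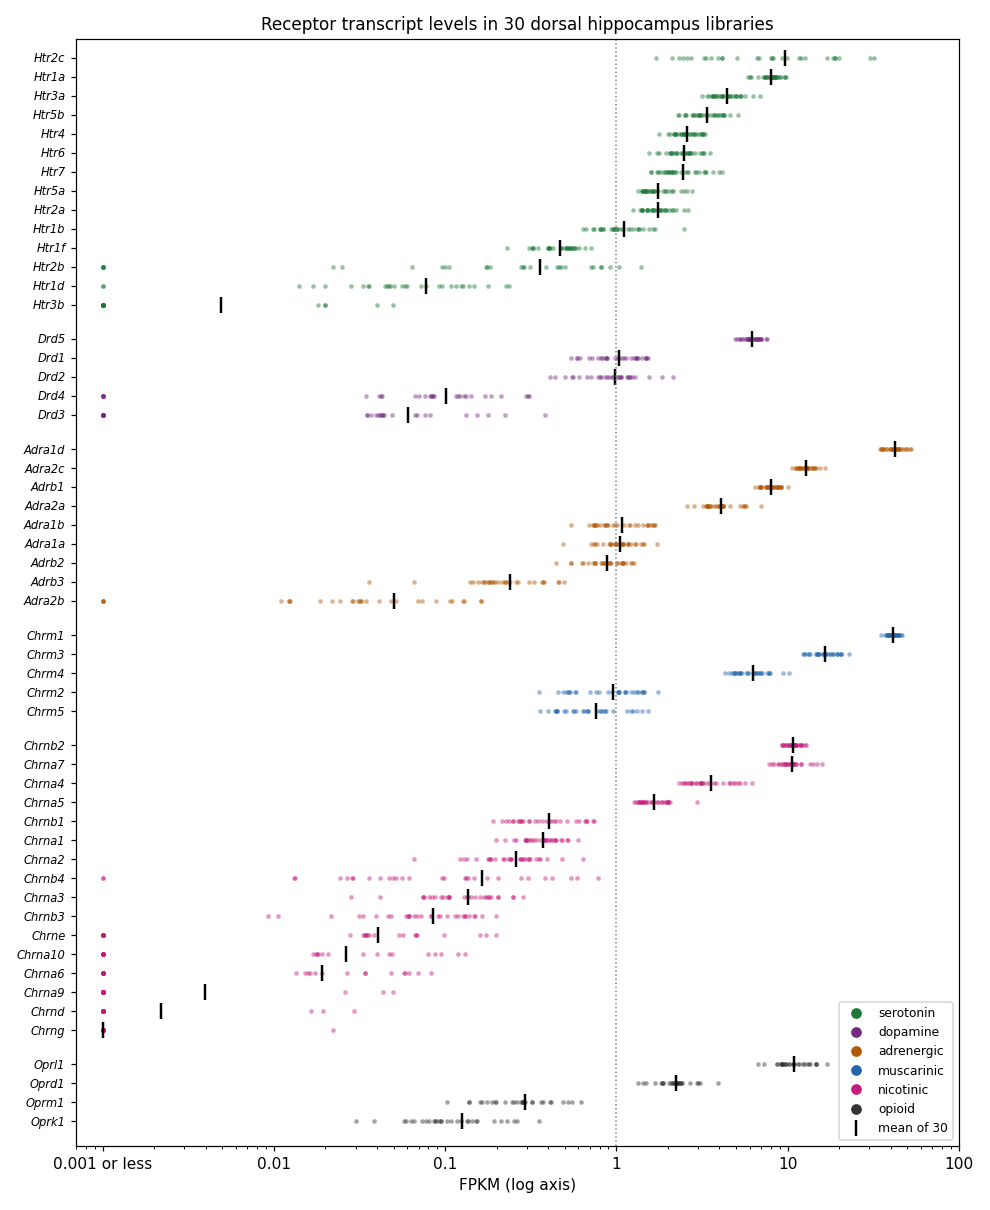
FPKM (log axis) of each of the 53 receptor genes in 30 libraries, grouped by receptor family, with 1 point per mouse and a bar at the mean of 30. Values of 0 are drawn at the left edge, and the dotted line marks 1 FPKM, the limit for testing; Adra1d and Chrm1 lie farthest to the right and most nicotinic subunits lie left of the line.

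In 4 families a single gene made up most of the summed level. Adra1d, the Gq-coupled alpha-1D adrenergic receptor, averaged 42.3 ± 4.91 FPKM (SD, n = 30) and was 59.9% of the adrenergic sum. It was followed by Adra2c, a Gi-coupled autoreceptor type, with 12.8 ± 1.37 FPKM, and by Adrb1, the Gs-coupled beta-1 receptor, with 8.01 ± 0.885 FPKM. Chrm1, the Gq-coupled muscarinic receptor of pyramidal neurons, averaged 41.2 ± 2.78 FPKM and was 62.6% of the muscarinic sum. Chrm3, also Gq-coupled, averaged 16.6 ± 2.79 FPKM and Gi-coupled Chrm4 6.26 ± 1.42 FPKM. Oprl1, the nociceptin receptor, averaged 10.9 ± 2.38 FPKM and was 80.4% of the opioid family, well above the delta receptor Oprd1 (2.24 ± 0.524 FPKM) and the mu receptor Oprm1 (0.295 ± 0.128 FPKM). Drd5, the Gs-coupled D5 receptor, averaged 6.22 ± 0.69 FPKM and was 74.0% of the dopamine family, above the Gs-coupled Drd1 and the Gi-coupled Drd2.

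Levels were shared more evenly in the other 2 families. Htr2c, Gq-coupled, averaged 9.66 FPKM with an SD of 8.15 and was 25.04% of the serotonin sum. The Gi-coupled Htr1a averaged 8.01 ± 0.986 FPKM and the channel subunit Htr3a 4.45 ± 0.881 FPKM. Htr3b, the partner subunit of Htr3a, was above 0 in 5 of 30 libraries. Among nicotinic subunits the beta-2 subunit Chrnb2 (10.8 ± 0.946 FPKM) and the alpha-7 subunit Chrna7 (10.7 ± 1.90 FPKM) together made up 76.0% of the sum. The alpha-4 subunit Chrna4, which forms heteromers with beta-2, averaged 3.58 ± 1.07 FPKM. Only 4 of the 16 nicotinic genes were tested, and the muscle subunits Chrnd and Chrng were above 0 in 3 libraries and 1 library. In the annotation, exons on the opposite strand cover 16.3% of the exon length of Chrnb2 (Adar), 48.6% of that of Drd5 (Gm26560), 7.7% of that of Adra1d (Gm14285) and 5.1% of that of Chrm1 (Gm22820). Whether the authors' quantification used strand is not given in the sources used here, so reads of these partners cannot be told apart from the receptors' own.

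Neighbours in the order of levels often changed places between mice. Adra1d was above Chrm1 in 14 of 30 libraries, Oprl1 above Chrnb2 in 14, Chrnb2 above Chrna7 in 16, and Htr1a above Adrb1 in 13. The step from Chrm1 to Chrm3 was kept in 30 of 30 libraries, with a mean difference of 24.6 ± 3.35 FPKM (SD). Chrm3 was above Adra2c in 28 of 30. The spread among mice differed by gene. The median coefficient of variation within conditions was 6.00% for Chrm1 and 7.87% for Chrnb2, 20.6% for Chrna4, and 90.6% for Htr2c.

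Promoter stretches of the 5 receptors called in the comparisons that follow are shown, because Gs-coupled receptors act on genes with a cyclic AMP response element (CRE) and CREST binds CBP, a coactivator of the CRE-binding protein CREB. On GRCm38 the genes lie at chr2:181018380-181043546 (Chrna4, minus strand), chr19:54044151-54048982 (Adra2a, plus), chr13:54051183-54055705 (Drd1, minus), chr5:38319367-38322518 (Drd5, plus) and chr13:9875486-10360847 (Chrm3, minus). The stretches were read 5′ to 3′ on the gene's strand from RefSeq promoters of GRCm38.p6. Those of Drd1 and Chrm3 end at the annotated gene start and lie outside exons. That of Chrna4 lies outside exons within the longer annotated gene, that of Adra2a lies in the annotated exon of the gene, and that of Drd5 lies upstream of the gene in an exon of the antisense Gm26560. Stretches in exons were held to 30 bases. Capitals mark a CRE half-site (TGACG) or a GC box (GGGCGG) on either strand within the stretch printed. The full promoters of Drd1 and Adra2a also hold a GC box outside these stretches. Another Drd1 promoter, with a stretch at chr13:54054781-54054900, is not printed and also holds a GC box in full.
Chrna4, chr2:181039306-181039425, minus strand: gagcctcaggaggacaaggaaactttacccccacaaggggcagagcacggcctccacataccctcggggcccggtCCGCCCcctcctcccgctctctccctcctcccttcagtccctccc
Adra2a, chr19:54045177-54045206, plus strand: cccacgtgggggcTGACGccggctgctcgg
Drd1, chr13:54055706-54055825, minus strand: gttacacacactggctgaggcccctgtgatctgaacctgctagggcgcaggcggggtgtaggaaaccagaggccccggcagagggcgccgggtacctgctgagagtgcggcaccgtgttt
Drd5, chr5:38319276-38319305, plus strand: gctgataggagcGGGCGGgcgcccgtgccg
Chrm3, chr13:10360848-10360967, minus strand: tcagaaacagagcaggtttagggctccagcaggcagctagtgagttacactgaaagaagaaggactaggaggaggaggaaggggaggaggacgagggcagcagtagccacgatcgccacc
Of the 53 genes, 40 matched the RefSeq table and had 49 promoters of 300 bases. The half-site TGACG was present in 6 of the 49 (12.2%), in the promoters of Adra2a, Adrb1, Chrna5, Chrnb1, Chrnb2 and Htr7, against 20.8% of all 32851 promoters. The palindrome TGACGTCA was present in 0 of 49 against 1.79%, and the AP-1 motif TGANTCA in 4 of 49 (8.16%) against 7.81%. The GC box was present in 24 of 49 (49.0%) against 35.7%. The palindrome contains the half-site, so these counts overlap, and the motifs are matches of letters and not measured binding.

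The first question was how receptor transcripts differ between trained and home cage mice. Each trained condition was set against VEH-HC, so the 4 comparisons share the same 6 control mice and are not independent of each other. Tests are from limma on log2(FPKM + 1) over 13184 genes with Benjamini-Hochberg adjusted p-values, and fold changes on this scale are drawn toward 0 for low genes. A receptor was called at an adjusted p under 0.05. In bulk tissue, fewer cells of a type and less RNA per cell cannot be told apart.

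In VEH-T10, 1 of 27 receptors was called lower and 0 higher, where 0.501% of all tested genes were called lower and 0.319% higher. In VEH-T3, 2 were called lower and 0 higher, against 2.94% and 2.23% of all genes. In Y397F-T10, 0 were called in either direction by limma, against 0.66% lower and 0.47% higher. In Y397D-T3, 2 were called lower and 2 higher, against 3.16% and 3.91%. The calls were few and rested on 5 genes. At an unadjusted p under 0.05, 5, 9, 7 and 9 receptors passed in VEH-T10, VEH-T3, Y397F-T10 and Y397D-T3, or 18.5%, 33.3%, 25.9% and 33.3% of those tested, where 14.9%, 21.6%, 16.9% and 24.9% of all genes did. With libraries centred on their median, 0, 0, 0 and 2 receptors were called in these comparisons, and the 2 were Drd5 and Chrm3, both higher. Of all genes, 0.349%, 2.59%, 0.319% and 7.13% were called with this centring. Values of the mice did not overlap between conditions for 2 receptors in VEH-T10 (background 2.43%), 0 in VEH-T3 (1.99%), 2 in Y397F-T10 (1.8%) and 1 in Y397D-T3 (5.52%). Without the 3 libraries low on the glial lists, the limma calls were 1, 9, 6 and 7 in VEH-T10, VEH-T3, Y397F-T10 and Y397D-T3. Of all genes, 5.4%, 12.5%, 6.23% and 11.3% were then called. The receptors called in VEH-T3 without these libraries were Chrm3 (higher) and Adra2a, Adrb1, Chrm4, Chrna4, Chrnb2, Htr5a, Htr7 and Oprl1 (lower). In Y397F-T10 they were Drd5 (higher) and Adra2a, Chrm4, Chrna4, Chrnb2 and Oprl1 (lower), and in Y397D-T3 Adra1d and Chrna7 joined the called receptors as higher and Adra2a as lower.

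The median log2 fold change of the 27 receptors was -0.06 in VEH-T10, -0.14 in VEH-T3, -0.13 in Y397F-T10 and -0.05 in Y397D-T3. Over all tested genes it was -0.03, -0.04, -0.04 and -0.03. Fold changes were negative for 18, 18, 15 and 15 of the 27 receptors, against 59.7%, 61.0%, 63.7% and 59.6% of all genes.

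**Figure D2:**
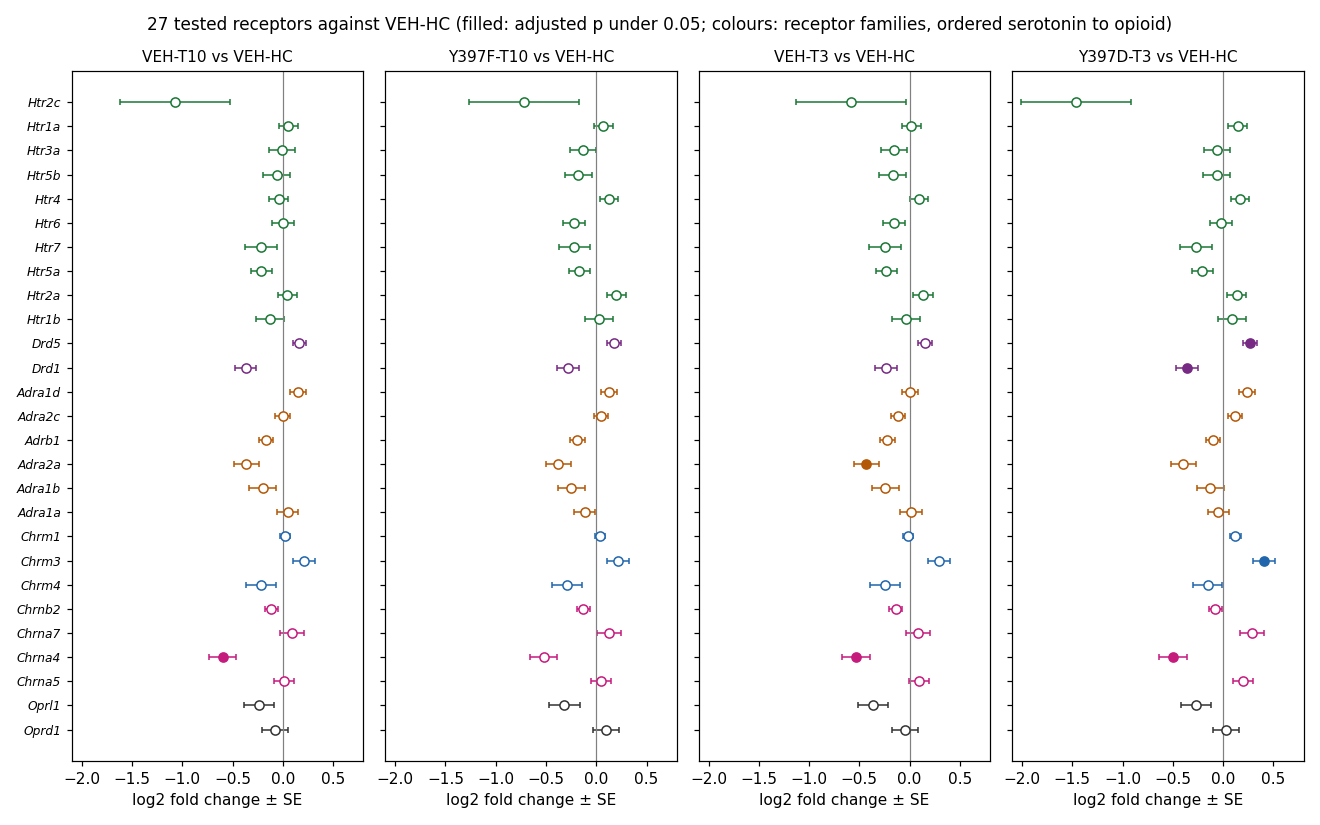
Log2 fold change ± SE (n = 6 mice per condition) of the 27 tested receptors in each trained condition against VEH-HC, ordered by family from serotonin at the top to opioid at the bottom. Filled points have an adjusted p under 0.05: Chrna4 is filled to the left of 0 in 3 panels, and Drd5 and Chrm3 are filled to the right of 0 in Y397D-T3.

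Among nicotinic subunits, Chrna4 was called lower in 3 of the 4 trained conditions. In VEH-HC its lowest, median and highest values were 4.55, 5.01 and 5.66 FPKM. In VEH-T10 they were 2.43, 2.83 and 4.20. The Y397F-T10 mice had 2.66, 3.16 and 3.81. In both 10 min conditions, all 6 mice lay below every VEH-HC mouse. In VEH-T3 the values were 2.33, 2.85 and 6.19 FPKM. The Y397D-T3 mice had 2.51, 3.21 and 4.59. A single VEH-T3 mouse stood above all VEH-HC mice while the other 5 lay between 2.33 and 3.20, and 1 Y397D-T3 mouse reached into the VEH-HC range. Chrna4 fell by 0.60 on the log2 scale (SE 0.137, adjusted p = 0.0308, limma) in VEH-T10, by 0.54 (adjusted p = 0.0244) in VEH-T3 and by 0.50 (adjusted p = 0.0266) in Y397D-T3. In Y397F-T10 the log2 fold change was -0.52 with an adjusted p of 0.0536, which missed the threshold. On linear values the mean was 0.599 of VEH-HC in VEH-T10 and 0.636 in Y397F-T10. With libraries centred on their median, Chrna4 was called in none of the 4 comparisons. With only the 12 libraries compared, the VEH-T3 call was lost as well, but 0 of 13184 genes were called in that fit. In Y397F-T10 the gene was called with only the 12 libraries, with the replicate number as a block and without the 3 libraries low on the glial lists. With 1 library left out, the VEH-T10 call was lost in 9 of 30 fits, the VEH-T3 call in 6 and the Y397D-T3 call in 3.

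Markers of the deep cortical layers moved with Chrna4. Of the 10 symbols of that list, 9 were in the table, and none of these was at 0 in all mice of a condition. The absent symbol, Ccn2, is another name of Ctgf, which was present. The mean log2(FPKM + 1) of the list was 2.46 ± 0.0638 (SD, n = 6) in VEH-HC and 2.13 ± 0.0829 in VEH-T10. It was 2.22 ± 0.245 in VEH-T3, 2.204 ± 0.163 in Y397F-T10 and 2.18 ± 0.140 in Y397D-T3. Its summed level ranged from 77.6 to 86.7 FPKM in VEH-HC and from 70.1 to 94.97 FPKM in trained mice. The VEH-T3 library with 6.19 FPKM of Chrna4 had the highest list mean of all, 2.71. It was also 1 of the 3 libraries low on the glial lists, and its oligodendrocyte sum was 1384 FPKM against 2033 to 2318 in VEH-HC. Thalamus markers, all 10 in the table and none at 0 throughout a condition, had a mean of 2.09 in VEH-HC and 1.75 to 1.97 in the trained conditions, with sums of 36.1 to 55.04 FPKM in VEH-HC and 17.3 to 73.7 FPKM in trained mice. Over the 30 libraries Pearson's r of Chrna4 was 0.86 with the deep cortical list and 0.15 with the thalamus list. With condition means subtracted these were 0.77 and -0.39. The deep cortical value was picked from all receptors and lists after the values were seen and has no p-value. It was not particular to Chrna4, as Htr5a had an r of 0.76 with this list, Chrm4 0.75 and Chrm3 -0.75. With the oligodendrocyte list Chrna4 had an r of -0.48, and -0.78 with condition means subtracted. The part of these lists in the difference of Chrna4 from VEH-HC was not tested.

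The other tested nicotinic subunits were not called. Chrnb2 had log2 fold changes of -0.08 to -0.14 in the 4 comparisons, with adjusted p-values from 0.196 to 0.468. For Chrna7 the lowest, median and highest values were 7.76, 9.74 and 11.9 FPKM in VEH-HC and 10.2, 11.6 and 14.8 in Y397D-T3. Its log2 fold change there was 0.29 (adjusted p = 0.133), with 6 of 6 mice above the VEH-HC median. Chrna5, an accessory subunit, had fold changes between 0.01 and 0.20 with adjusted p-values of at least 0.216.

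Among adrenergic receptors, Adra2a, the Gi-coupled alpha-2A receptor, had lower means in all trained conditions and was called in 1. VEH-HC mice ran from lowest through median to highest at 4.12, 5.38 and 7.04 FPKM. VEH-T3 mice had 2.59, 3.36 and 5.62. VEH-T10 mice had 3.41, 3.99 and 4.21, Y397F-T10 mice 3.20, 3.57 and 5.55, and Y397D-T3 mice 3.37, 3.66 and 4.21. Each range overlapped that of VEH-HC, in which 2 mice were near 4 FPKM. Adra2a fell by 0.43 on the log2 scale (SE 0.125, adjusted p = 0.0422, limma) in VEH-T3. The fold changes were -0.36, -0.38 and -0.39 in VEH-T10, Y397F-T10 and Y397D-T3, with adjusted p-values of 0.148, 0.125 and 0.0529. The VEH-T3 call was lost with no filter on mean FPKM, with centred libraries, with the replicate number as a block and with 9 of 30 single libraries left out. It was also lost with only the 12 libraries compared, where 0 of 13184 genes were called. Medial habenula markers were lower in the same direction, with list means of 1.72 ± 0.0759 in VEH-HC and 1.45 to 1.53 in the trained conditions, all 8 genes in the table and none at 0 throughout a condition. Their summed level was 33.6 to 58.3 FPKM in VEH-HC and 18.1 to 46.7 FPKM in trained mice. Over the 30 libraries Calb2 averaged 17.5 FPKM, Tac2 4.63, Nwd2 3.86 and Lrrc55 3.17. Gng8, Gpr151, Irx2 and Pou4f1 averaged 0.807, 0.524, 0.033 and 0.0285 FPKM. The sum thus rests mostly on Calb2, and the list does not by itself show habenula tissue. The part of these markers in the Adra2a result was not tested.

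Adrb1 was held within a narrow range in VEH-HC, its lowest, median and highest being 8.39, 8.85 and 9.19 FPKM. In Y397F-T10 the values were 6.88, 7.64 and 8.13 and did not overlap VEH-HC. The log2 fold change was -0.19 (SE 0.0722, adjusted p = 0.175), and it was -0.17, -0.22 and -0.10 in VEH-T10, VEH-T3 and Y397D-T3 with adjusted p-values of 0.263, 0.0676 and 0.406. Adra1d had 34.8, 38.8 and 43.5 FPKM in VEH-HC and 43.2, 44.6 and 52.6 in Y397D-T3, so that only the ends of the ranges touched. Its log2 fold change of 0.24 had an adjusted p of 0.066. Adra2c was within 0.12 log2 of VEH-HC in each comparison, and its adjusted p-values were at least 0.308.

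Both tested dopamine receptors couple to Gs, and they differed in direction. Drd1 was low throughout. In VEH-HC its lowest, median and highest values were 1.26, 1.41 and 1.54 FPKM. In Y397D-T3 they were 0.543, 0.925 and 1.22, and VEH-T10 mice had 0.610, 0.872 and 1.105. In both, every mouse lay below every VEH-HC mouse, while VEH-T3 (0.590, 1.06 and 1.49) and Y397F-T10 (0.722, 0.962 and 1.34) overlapped VEH-HC. Drd1 fell by 0.36 on the log2 scale (SE 0.109, adjusted p = 0.0438, limma) in Y397D-T3. In VEH-T10 the fold change was -0.37 with an adjusted p of 0.0915. The Y397D-T3 call was lost with a pseudocount of 0.1, with centred libraries and with 11 of 30 single libraries left out. Striatal markers, which name a tissue rich in Drd1, had a mean of 2.57 ± 0.114 in VEH-HC and 2.36 to 2.44 in trained conditions. All 8 were in the table and none was at 0 throughout a condition, but Ido1 reached only 0.175 FPKM and Adora2a 1.39 FPKM in any library, and the list summed to 96.1 to 131 FPKM in VEH-HC and 72.2 to 182 FPKM in trained mice. Over the 30 libraries Pearson's r of Drd1 with this list was 0.52, and 0.30 with condition means subtracted. The part of the list in the difference of Drd1 from VEH-HC was not tested.

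Drd5 was higher in Y397D-T3. The lowest, median and highest values were 4.91, 5.48 and 6.07 FPKM in VEH-HC and 5.89, 6.89 and 7.497 in Y397D-T3, where 6 of 6 mice were above the VEH-HC median and the ends of the ranges overlapped. Drd5 rose by 0.26 on the log2 scale (SE 0.068, adjusted p = 0.0191, limma). Fold changes in VEH-T10, VEH-T3 and Y397F-T10 were 0.16, 0.15 and 0.18 with adjusted p-values of 0.244, 0.188 and 0.182. The Y397D-T3 call was kept under each of the other settings of the model and in 29 of 30 fits with 1 library left out. Drd2, below the limit for testing, averaged 1.28 ± 0.597 FPKM in VEH-HC and 0.835 to 0.935 FPKM in trained conditions.

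**Figure D3:**
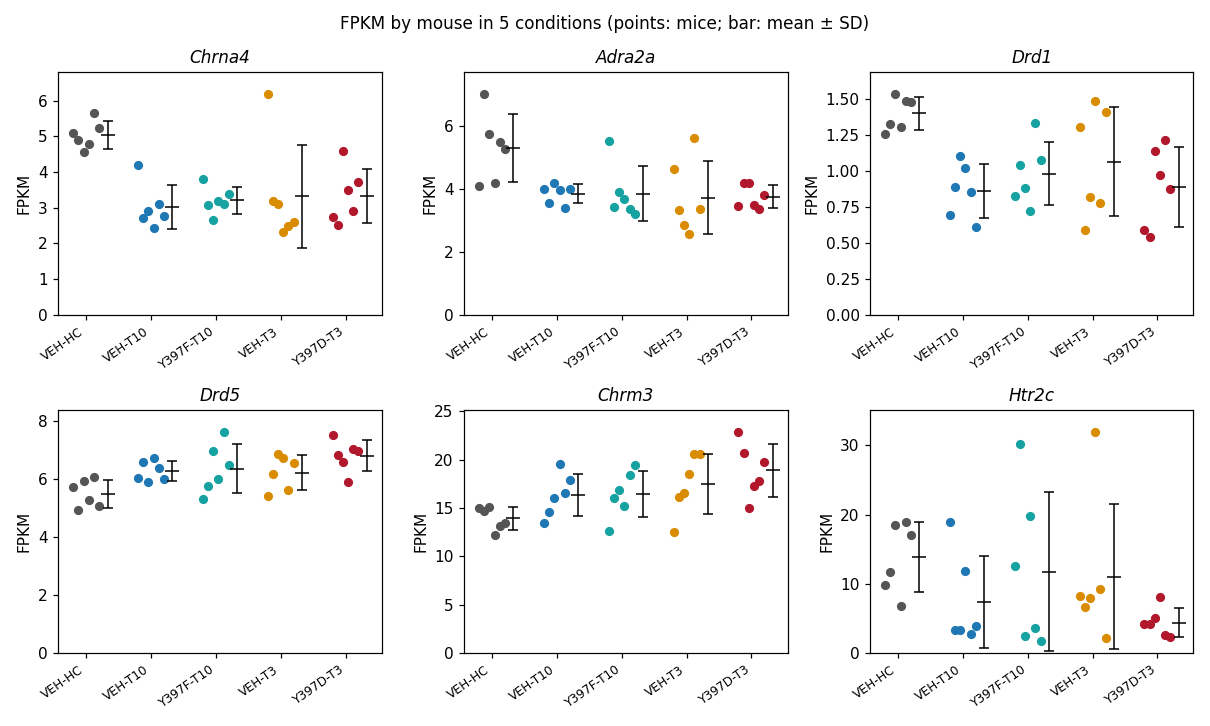
FPKM of 6 receptors in 5 conditions, with 1 point per mouse and the mean ± SD (n = 6) beside the points; all axes start at 0. Chrna4 is lower in nearly all trained mice with 1 VEH-T3 mouse at 6.19 FPKM, Drd5 and Chrm3 are higher in Y397D-T3, and Htr2c spans 1.69 to 31.9 FPKM.

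Among muscarinic receptors, Chrm3 was higher in Y397D-T3. Its lowest, median and highest values were 12.2, 14.1 and 15.1 FPKM in VEH-HC and 15.02, 18.7 and 22.8 in Y397D-T3, so that the lowest Y397D-T3 mouse was just below the highest VEH-HC mouse and the others were apart. Chrm3 rose by 0.41 on the log2 scale (SE 0.110, adjusted p = 0.0249, limma). The fold changes were 0.21, 0.29 and 0.22 in VEH-T10, VEH-T3 and Y397F-T10, with adjusted p-values of 0.38, 0.113 and 0.319. The 3 libraries low on the glial lists held the lowest Chrm3 value of their conditions, at 13.4 (VEH-T10), 12.5 (VEH-T3) and 12.6 FPKM (Y397F-T10), where their oligodendrocyte sums were 1308, 1384 and 1242 FPKM. Within Y397D-T3 the mouse with the lowest Chrm3 value also had the lowest oligodendrocyte sum, 1570 FPKM, and the mouse with the highest Chrm3 value the highest sum, 3311 FPKM. The mean of the oligodendrocyte list, all 7 markers in the table and none at 0, was 7.34 ± 0.0667 in VEH-HC and 7.29 ± 0.337 in Y397D-T3. The deep cortical list moved the other way from Chrm3, from 2.46 ± 0.0638 in VEH-HC to 2.18 ± 0.140 in Y397D-T3. The dentate granule cell list, all 8 markers in the table and none at 0 throughout a condition, had a mean of 3.498 ± 0.0569 in VEH-HC and 3.71 ± 0.212 in Y397D-T3. Its sums were 127 to 158 and 109.8 to 197 FPKM. Over the 30 libraries r of Chrm3 was 0.66 with the oligodendrocyte, -0.75 with the deep cortical and 0.36 with the dentate list. With condition means subtracted these were 0.85, -0.73 and 0.29. For Drd5 they were 0.23, -0.68 and 0.51, and 0.39, -0.55 and 0.52 with condition means subtracted. These r values have no p-value, and the part of these 3 lists in the Chrm3 and Drd5 results was not tested. The Chrm3 call was kept under each other setting of the model and in 25 of 30 fits with 1 library left out. Chrm1 had a log2 fold change of 0.12 in Y397D-T3 (adjusted p = 0.136), with 6 of 6 mice above the VEH-HC median. Chrm4 had lower means in all trained conditions, with fold changes from -0.15 to -0.29 and adjusted p-values of at least 0.313.

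No serotonin receptor was called. Htr2c had the widest spread of all tested receptors, its lowest, median and highest being 6.82, 14.4 and 19.0 FPKM in VEH-HC. VEH-T10 mice had 2.71, 3.64 and 19.0, and Y397F-T10 mice 1.69, 8.08 and 30.2. VEH-T3 mice had 2.12, 8.13 and 31.9, and Y397D-T3 mice 2.31, 4.13 and 8.10. The VEH-HC and trained ranges overlapped in each case. The log2 fold change in Y397D-T3 was -1.46 with a 95% interval from -2.58 to -0.34 and an adjusted p of 0.0966. The choroid plexus list summed to 929 to 5669 FPKM in VEH-HC (median 3192) and to 15.5 to 2872 FPKM in Y397D-T3 (median 128), with 11.6 to 12924 FPKM over all trained mice, and its 10 markers were all in the table. Htr1a, an inhibitory receptor of CA1 pyramidal neurons, was within 0.15 log2 of VEH-HC in each comparison, with adjusted p-values of at least 0.337. Htr3a was within 0.15 log2 as well, with adjusted p-values of at least 0.543. The other 7 tested serotonin receptors had fold changes between -0.27 and 0.20, and their adjusted p-values were 0.186 or more.

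Both tested opioid receptors were not called. Oprl1 ran from lowest through median to highest at 10.9, 12.9 and 14.7 FPKM in VEH-HC and 7.26, 9.44 and 14.6 in VEH-T3, with 5 of 6 trained mice below the VEH-HC median. Its log2 fold changes were -0.24, -0.37, -0.32 and -0.27 in VEH-T10, VEH-T3, Y397F-T10 and Y397D-T3, with adjusted p-values from 0.143 to 0.475. Oprd1 had fold changes between -0.08 and 0.10. Oprm1 was below 1 FPKM in every library. In a limma model of the 18287 rows above 0 in at least 6 libraries, 49 receptors could be fitted, and none of those below the limit for testing was called in any comparison (lowest adjusted p = 0.082).

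The second question was whether the CREST mutants differ from vehicle mice trained for the same time. In Y397F-T10 against VEH-T10, 0 of 27 receptors were called by limma, as were 0 of 13184 genes (0%), and 0 receptors had an unadjusted p under 0.05, which 3.78% of all genes had. Chrna4 differed by 0.07 log2 with a 95% interval from -0.21 to 0.35, and Drd1 by 0.09 with an interval from -0.14 to 0.31, so the data leave a range of differences in both directions. In Y397D-T3 against VEH-T3, 0 of 27 receptors were called by limma, where 0.00758% of all genes were called. Fold changes were positive for 23 of 27 receptors, where 49.1% of all genes had a negative one, and the median was 0.10 against 0.00 over all genes.

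At an unadjusted p under 0.05, 3 receptors (11.1%) were higher in Y397D-T3 than in VEH-T3 and 0 lower, where 7.87% of all genes reached it. Adra2c ran from lowest through median to highest at 10.7, 11.6 and 12.9 FPKM in VEH-T3, while Y397D-T3 mice had 12.5, 13.5 and 16.5, a log2 difference of 0.24 (adjusted p = 0.504). Adra1d had 35.1, 38.995 and 45.03 FPKM in VEH-T3, a difference of 0.24 (adjusted p = 0.523). Chrm1 had 35.2, 39.05 and 46.2 FPKM in VEH-T3, while Y397D-T3 mice had 41.0, 44.0 and 46.5, a difference of 0.14 (adjusted p = 0.548). In each gene 6 of 6 Y397D-T3 mice were above the VEH-T3 median, and the ranges overlapped. None of these differences passed the adjusted threshold. Receptors called in Y397D-T3 against VEH-HC were not shown to differ from VEH-T3: the differences were 0.11 for Drd5 (adjusted p = 0.699) and 0.11 for Chrm3 (adjusted p = 0.816).

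In VEH-T10 against VEH-T3, 10 min against 3 min of training, 0 of 27 receptors were called by limma, against 0.0455% of all genes, and 0 had an unadjusted p under 0.05, which 8.15% of all genes had. Htr2c differed by -0.49 log2 with an interval from -1.61 to 0.63.

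Genes that make, remove or relay the transmitters were taken from 3 lists. Of 22 enzymes, transporters and peptide precursors, 11 were tested. None was called in VEH-T10 or Y397F-T10 and 1 was called lower in each of VEH-T3 and Y397D-T3, where 2.94% and 3.16% of all genes were. Ache, acetylcholinesterase, which breaks down acetylcholine, was 28.8 ± 1.14 FPKM in VEH-HC and 22.8 ± 2.24 in VEH-T3 and fell by 0.33 on the log2 scale (adjusted p = 0.0126). Maoa, the monoamine oxidase that degrades serotonin and noradrenaline, was 7.76 ± 0.399 FPKM in VEH-HC and 6.50 ± 0.445 in Y397D-T3 and fell by 0.22 (adjusted p = 0.0278). The list's median fold changes were -0.11, -0.14, -0.18 and -0.10 in VEH-T10, VEH-T3, Y397F-T10 and Y397D-T3, beside -0.03, -0.04, -0.04 and -0.03 over all genes.

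Of 48 symbols for G protein signalling genes, some of them 2 names of 1 gene, 44 were tested. Among these, 1, 2, 1 and 4 were called higher in VEH-T10, VEH-T3, Y397F-T10 and Y397D-T3, with 2 called lower in VEH-T3. The shares of all genes called higher were 0.319%, 2.23%, 0.47% and 3.91%, and 2.94% were called lower in VEH-T3. Gnaq, the Gq alpha subunit through which Chrm1, Chrm3 and Adra1d signal, was 45.6 ± 3.68 FPKM in VEH-HC and 56.7 ± 3.56 in Y397D-T3. It rose by 0.31 on the log2 scale there (adjusted p = 0.00176), by 0.25 in VEH-T3 (adjusted p = 0.0132) and by 0.23 in Y397F-T10 (adjusted p = 0.0358). Adcy9, an adenylyl cyclase, rose by 0.26 in Y397D-T3 (adjusted p = 0.00208) and Rgs8, a regulator that shortens G protein signals, by 0.25 (adjusted p = 0.0071). Rgs8 also rose by 0.23 in VEH-T10 (adjusted p = 0.0392). Adcy9 rose by 0.18 in VEH-T3 (adjusted p = 0.0274), and the fourth gene called in Y397D-T3 was Kcnj6, a channel opened by Gi-coupled receptors, with a rise of 0.42 (adjusted p = 0.0213). The 2 lowered genes were Rgs4, another such regulator, and Prkaca, a catalytic subunit of protein kinase A, with log2 fold changes of -0.39 and -0.17 (adjusted p = 0.0334 and 0.0417). Medians of the list were -0.08, -0.07, -0.07 and -0.08, also beside -0.03, -0.04, -0.04 and -0.03 over all genes. Of 9 symbols for nicotinic accessory genes, with Tmem35 under 2 names, 8 were tested and 1 was called. This was Ly6h, which lowers the surface level of nicotinic receptors, with a log2 fold change of -0.41 in VEH-T3 (adjusted p = 0.0479, limma). The medians of these 8 were -0.11, -0.16, -0.18 and -0.10. In the 3 comparisons among trained mice, 0 genes of the 3 lists were called by limma.

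A last set of values concerns receptors that are abundant in particular neighbouring tissues or cell types. In 11 pairs of a receptor and a marker list, log2(FPKM + 1) of the receptor was related to the mean of the list over 30 libraries, with 100000 permutations and Benjamini-Hochberg adjustment over Pearson and Spearman values together. Htr2c rose with the choroid plexus list, the epithelium in which this receptor is abundant. Pearson's r was 0.86 (permutation p = 1e-05, the smallest the permutations can give, adjusted 0.00022) and Spearman's rho 0.72 (permutation p = 3e-05, adjusted 0.00022). With condition means subtracted r was 0.83, and without the 2 libraries farthest from the median of the list it was 0.82. The VEH-T3 mouse with 31.9 FPKM of Htr2c had the highest choroid plexus sum, 12924 FPKM. The relation left some variation: Y397F-T10 1 had 12.6 FPKM of Htr2c with a sum of 30.1 FPKM.

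**Figure D4:**
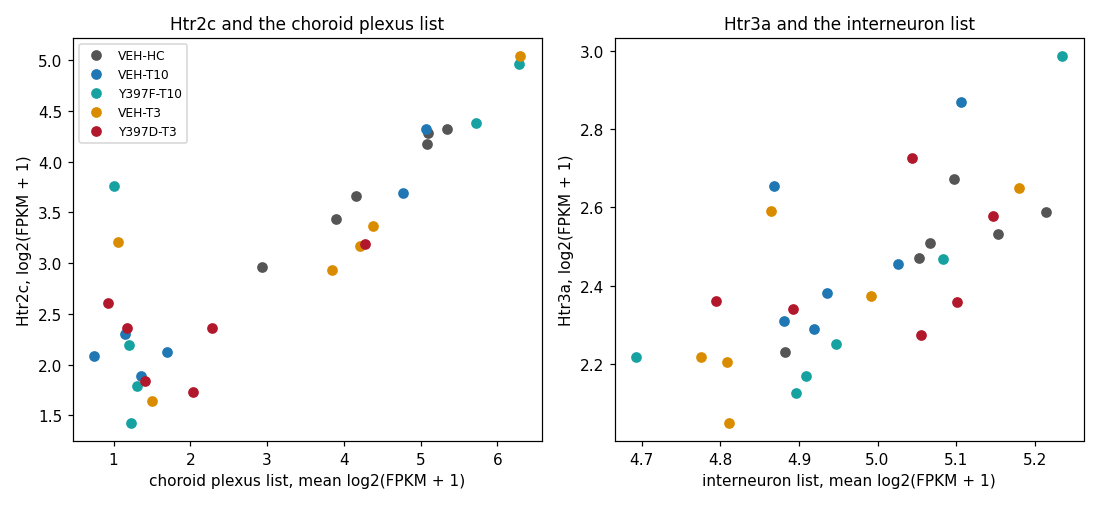
Log2(FPKM + 1) of Htr2c against the level of 10 choroid plexus markers (left, their mean on the same scale) and of Htr3a against 10 interneuron markers (right), with 1 point per library coloured by condition. Both receptors rise with their list across the 30 libraries, with r of 0.86 and 0.69, and each condition has points at several places along the range.

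Htr3a rose with the interneuron list, whose cells include the Htr3a-expressing class. Its r was 0.69 (permutation p = 2e-05, adjusted 0.00022) and rho 0.65 (permutation p = 0.00019, adjusted 0.00104). This r was 0.70 after condition means were subtracted and 0.63 without the 2 farthest libraries. The relation was not particular to Htr3a. Over the 27 tested receptors r with this list ran from -0.29 (Chrm3) to 0.80 (Chrm4). Adra1b (0.74), Oprl1 (0.74) and Chrnb2 (0.73) were also above Htr3a. With the dentate granule cell list Htr3a had an r of -0.79. Chrm2 had an r of 0.43 with the interneuron list (permutation p = 0.0193, adjusted 0.0472) and a rho of 0.45 (permutation p = 0.013, adjusted 0.0359), but 0.36 after condition means were subtracted (adjusted 0.0784) and 0.40 without the 2 farthest libraries (adjusted 0.0861). Drd1 had an r of 0.52 with the striatum list (permutation p = 0.00336, adjusted 0.0134) and a rho of 0.52 (permutation p = 0.00365, adjusted 0.0134), which was 0.53 without the 2 farthest libraries but 0.30 within conditions (adjusted 0.129). Within conditions the r of Drd1 was thus still positive but did not pass the threshold. Chrna5 fell with the deep cortical list by rho (-0.51, permutation p = 0.00458, adjusted 0.0144) but its r of -0.41 missed the threshold (permutation p = 0.0233, adjusted 0.0512), and it was -0.44 within conditions and -0.36 without the 2 farthest libraries. The remaining 6 pairs had r between -0.36 and 0.38 with adjusted permutation p-values of at least 0.07, and the lowest adjusted value of a rho among them was 0.0618 (Oprd1 with interneurons).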

How the data were processed

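RNA of 30 mice was sequenced as paired reads on NovaSeq and HiSeq instruments that are not assigned to libraries. The authors aligned reads to mm10 with TopHat2 2.1.1 and deposited FPKM values from Cufflinks 2.2.1, which divide fragments by transcript length and library total. The 53 rows were chosen by symbol, and 0 further value columns were left out. The receptors and lists were chosen with earlier results of these data known.

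Tests were made with limma (3.58.1, R 4.3.3) on log2(FPKM + 1) of the 13184 rows that averaged 1 FPKM or more, with 1 term per condition over all 30 libraries, moderation with a trend, 7 comparisons and Benjamini-Hochberg adjustment at 0.05. Full values are given for receptors called in any comparison or with no overlap between mice of both conditions, and for the 3 highest of each family. Partner genes are named up to 3 per comparison by smallest p, and Kcnj6, Rgs4, Prkaca, Ly6h and Maoa were added after their values were seen. Intervals are at 95%. Positions are from GENCODE vM21 on GRCm38, the assembly also named mm10. Other steps used Python 3.11.15, numpy 2.4.6, scipy 1.17.1 and pandas 2.3.3. Alternatives were a pseudocount of 0.1, no filter (18287 rows above 0 in at least 6 libraries), centred libraries, unadjusted p, only the 12 libraries compared, the replicate number as a block, summed rows of a symbol (13128 rows) and each library left out in turn. Mice are separate animals. Absolute depth is unknown, so precision is given by the spread among 6 mice.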

Additional observations from a re-analysis of the deposited data

Results flagged for a closer look

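In 95 groups of 6 mice, the 5 conditions of 19 receptors, 15 had a highest or lowest mouse far from the others by Dixon's criterion. Chance flags about 1 in 20 groups when groups are independent and values are normal. The 19 receptors were measured in the same mice, so the groups are not independent and the 15 cannot be set against that rate. Of the 15, 10 come from the 3 libraries low on the glial lists. In Y397F-T10 1, Chrna7 was 15.9 FPKM, Chrm4 9.44, Htr3a 6.92, Adra2a 5.55 and Oprd1 3.00, each the highest of its condition. In VEH-T3 1, Chrm4 was 10.2 FPKM, Chrna4 6.19 and Oprd1 3.91, again the highest. In VEH-T10 1, Chrna7 was 14.1 FPKM and Oprm1 0.6252, with the next Oprm1 value at 0.288. These libraries had oligodendrocyte sums of 1242, 1384 and 1308 FPKM, against 1570 or more in the other 27, and the part of this in the receptor values was not tested.

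The other 5 lie in libraries that do not share this feature. Htr2c was 31.9 FPKM in VEH-T3 4, the library with the highest choroid plexus sum, against 9.29 in the next. Chrna7 was lowest in VEH-T3 5 with 8.07 FPKM, and Htr1a was lowest in VEH-HC 4 with 5.84 FPKM. Oprm1 was 0.489 FPKM in Y397D-T3 2 and Drd2 0.411 FPKM in Y397F-T10 5, both below the limit for testing.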

How the results depend on the processing

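The number of called receptors depended on the setting. In VEH-T10 it was 1, and 0 with centred libraries, 5 by unadjusted p, 2 with the 12 libraries compared and 0 to 1 with 1 library left out, where 0 came without VEH-HC 1, 2, 5 or 6 or VEH-T10 2, 3, 4, 5 or 6. In VEH-T3 it was 2, and 1 with no filter, 0 with centred libraries, 9 by unadjusted p, 0 with the 12 libraries and 0 to 6 with 1 library left out. The 6 calls came without VEH-T3 1, 0 without VEH-HC 4 or 5 or VEH-T3 2, 3, 4 or 6, and 1 without VEH-HC 2, 3 or 6. In Y397F-T10 it was 0, and 7 by unadjusted p, 1 with the 12 libraries and 0 to 2 with 1 library left out, with 2 without Y397F-T10 1 and 1 without VEH-T10 1, VEH-T3 1, 4 or 5 or Y397D-T3 3. In Y397D-T3 it was 4, and 2 with centred libraries, 9 by unadjusted p, 7 with the 12 libraries and 1 to 6 with 1 library left out, with 1 without VEH-HC 5 or Y397D-T3 2 and 2 without VEH-HC 2 or Y397D-T3 1 or 6. The share of all genes called was not counted in the fits with 1 library left out. The receptor counts of those fits therefore cannot be read as particular to receptors. The Chrm3 call was lost without VEH-HC 4 or 5 or Y397D-T3 1, 2 or 6, and the Drd5 call without VEH-HC 2. Without the 3 libraries low on the glial lists, chosen after the data were seen, the number of called receptors was 9 in VEH-T3, 6 in Y397F-T10 and 7 in Y397D-T3. Of all genes, 12.5%, 6.23% and 11.3% were then called. The number of called receptors was also taken in the comparisons among trained mice. In Y397D-T3 against VEH-T3 it was 0, and 3 by unadjusted p. Of all genes, the 12 libraries alone gave 321, 0, 43 and 1845 calls among 13184 in VEH-T10, VEH-T3, Y397F-T10 and Y397D-T3. The VEH-T3 fit of 12 libraries thus called no gene at all, receptor or other. In the same order, the fits without a filter called 105, 512, 124 and 821 of 18287 genes. Those with the replicate block called 162, 742, 176 and 1039 of 13184. With the replicate block, 1 receptor was called in VEH-T3 and 1 in Y397F-T10, Chrna4 in both, so that Adra2a was lost in VEH-T3 and Chrna4 gained in Y397F-T10. The 60 same-numbered pairs of libraries correlated between -0.50 and 0.84 with a median of 0.04, and 24 were over 0.1. All 60 would have had to be, so the numbers were not taken to pair the mice and the block stands only as an alternative. This rule cannot exclude a batch shared by some of the same-numbered libraries. The 300 other pairs had a median of 0.0065. The 3 libraries low on the glial lists all carry replicate number 1. Of 1254 recomputed fold changes of single receptors, 1136 kept their side of the threshold, 54 lost a call, 64 gained one and 0 changed direction. The relation of Chrna4 with the thalamus list, r = 0.15, was -0.39 with condition means subtracted. Those of Chrm2 with interneurons (0.36, and 0.40 without the 2 farthest libraries) and of Drd1 with striatum (0.30 within conditions) lost significance. The cause of these shifts was not tested. Depth limits all receptors below 1 FPKM, where values of 0 occur.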
